A study of Homo sapiens with 6 samples.

Results

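The IFIT genes (interferon-induced proteins with tetratricopeptide repeats) were followed across 6 RNA-seq libraries of the human teratocarcinoma line PA-1, which comes from the ovary. They were chosen by symbol, which gave 4 genes, IFIT1 (gene identifier 3434), IFIT2 (3433), IFIT3 (3437) and IFIT5 (24138), of the 20494 genes in the deposited table. All 6 groups are the same cell line and hold 1 library each. Vector cells took 8 µg of empty pCDNA3.1 plasmid, and the RIPK1, RIPK2, RIPK3 and RIPK4 groups took 8 µg of plasmid for the receptor-interacting protein kinase of that name, each for 48 h. Wnt3a cells were given 200 ng of that ligand for 16 h, with no plasmid recorded. Time and plasmid therefore cannot be told apart from the ligand in any difference between Wnt3a and the other libraries. With 1 library a group there is no spread between replicates and no p-value, and each difference below compares 2 libraries.

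IFIT genes are nearly silent in many resting cells and are among the most strongly induced transcripts when a cell meets viral RNA or interferon. Their promoters carry interferon-stimulated response elements. These are bound by IRF3 once RIG-I-like receptors or other sensors have activated it through TBK1, and by the factor complex ISGF3 once secreted interferon has engaged its receptor. IFIT1, IFIT2 and IFIT3 are textbook examples of genes that IRF3 can switch on without interferon, while MX1, the oligoadenylate synthetases and IFI27 depend mainly on interferon signalling. Among the proteins, IFIT1 binds capped RNA that lacks ribose methylation next to the cap and blocks its translation. IFIT3 stabilises IFIT1 in a complex that can also hold IFIT2, and IFIT5 binds RNA with a triphosphate end.

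The 160 bases before each annotated start are shown because they hold letters that match the core of the response element, the last match of IFIT5 only in part. They come from RefSeq (GRCh38.p14), whose windows of 300 bases cover IFIT1, IFIT5 and both starts of IFIT3. IFIT2 has no window in that table. Capitals mark each match to the core of the element, which is GAAA, then any 2 bases, then GAAA. All matches lie on the opposite strand, so the capitals read as its reverse complement.
IFIT3, first start, chr10:89327837-89327996, plus strand: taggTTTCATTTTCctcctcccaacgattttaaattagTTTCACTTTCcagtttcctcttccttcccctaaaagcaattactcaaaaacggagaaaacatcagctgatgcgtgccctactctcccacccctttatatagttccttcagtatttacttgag
IFIT3, second start, chr10:89332369-89332528, plus strand: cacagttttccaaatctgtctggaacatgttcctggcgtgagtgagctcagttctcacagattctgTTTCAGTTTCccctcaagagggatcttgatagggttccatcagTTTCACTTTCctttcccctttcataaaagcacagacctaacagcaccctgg
IFIT1, chr10:89392463-89392622, plus strand: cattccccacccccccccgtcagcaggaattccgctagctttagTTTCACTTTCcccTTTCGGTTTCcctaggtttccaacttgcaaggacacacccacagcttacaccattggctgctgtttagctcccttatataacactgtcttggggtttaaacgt
IFIT5, chr10:89414408-89414567, plus strand: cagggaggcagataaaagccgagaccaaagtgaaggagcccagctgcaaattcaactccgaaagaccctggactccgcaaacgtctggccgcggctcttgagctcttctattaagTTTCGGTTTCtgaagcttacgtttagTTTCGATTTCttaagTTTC

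IFIT1 and both starts of IFIT3 held 2 matches each, and IFIT5 held 3, the last of which runs from 4 bases before the start to 6 bases past it. In IFIT1 the 2 matches lie 116 to 107 and 103 to 94 bases before the start. The bases TTTCACTTTC occur in IFIT1 and before both starts of IFIT3, and no match in IFIT5 has them. With both strands searched, the core was found in 1255 of all 35116 promoter windows (3.57%). It was found in 7 of 12 IRF3 direct genes with a window and in 19 of 32 interferon-dependent genes, on the lists described below. The lists count genes and the share counts windows, so a gene with several starts had more chances of a match. A longer motif of 3 GAAA units with 2 bases between neighbours, which contains the core, was in 0 of the 3 IFIT genes with a window, 3 of the 12 IRF3 direct genes, 2 of the 32 interferon-dependent genes and 54 of all windows (0.154%). A match describes letters and not a bound site.

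**Figure D1:**
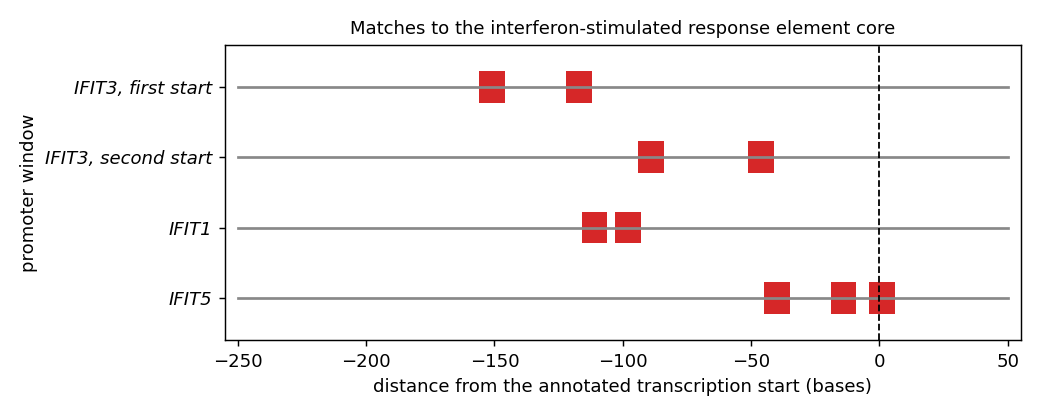
Matches to the core element (red boxes, either strand) in the 4 windows from 250 bases before to 50 bases after an annotated start (dashed line), by distance from that start in bases. IFIT1 and each IFIT3 start hold 2 matches, and IFIT5 holds 3 that lie nearer to its start.

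Levels are the authors' RPKM, in which read numbers are divided by gene length and by library size, and this allows comparison between genes. Ranges in brackets are 95% exact binomial intervals of a ratio of RPKM values, computed from read numbers recovered from the table. They cover counting error only. Library totals, recovered in the same way, lay between 17.2 M and 19.5 M reads (M, mega). RIPK4 stood at 17.9 RPKM and RIPK3 at 61.4 RPKM in their own libraries against 0 in Vector. RIPK2 stood at 27.4 against 11.8 RPKM and RIPK1 at 16.6 against 12.8 RPKM, so the RIPK1 library differs least from Vector in its own kinase. Of 10 embryonal carcinoma markers 9 reached 1 RPKM in at least 1 library, with a sum of 803 to 1237 RPKM, and TDGF1 was listed at 0 throughout. Haematopoietic markers summed to 2.80 to 7.25 RPKM over 10 genes and fibroblast markers to 196 to 290 RPKM, lowest in RIPK1 and highest in RIPK2 and RIPK3 respectively, as the IFIT genes were for the most part. CD68, a macrophage marker and the 1 haematopoietic marker that passed the filter below, stood at 1.94 RPKM in Vector, 4.89 in RIPK2 and 4.80 in RIPK3. PTPRC, which defines blood cells, was at most 0.00849 RPKM. The part of either list in the IFIT values was not tested.

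IFIT1, the cap sensor of the family, was its most abundant member in every library. It stood at 152 RPKM in Vector, 31.2 in Wnt3a, 29.1 in RIPK1, 196 in RIPK2, 239 in RIPK3 and 102 in RIPK4. Wnt3a and RIPK1 were thus far below the other libraries, and RIPK3 and RIPK2 were above Vector. RIPK1 was 5.23-fold below Vector, Wnt3a 4.88-fold below and RIPK4 1.49-fold below (1.44 to 1.54). RIPK2 was 1.29-fold above Vector (1.25 to 1.32) and RIPK3 1.57-fold above (1.53 to 1.61). As ratios to Vector, RIPK1 stood at 0.191 (0.182 to 0.201) and Wnt3a at 0.205 (0.195 to 0.216).

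IFIT2, also known as ISG54, was the least abundant member in Vector. It stood at 4.68 RPKM in Vector (282 reads), 2.92 in Wnt3a (189 reads), 1.97 in RIPK1 (134 reads), 29.7 in RIPK2 (2001 reads), 24.7 in RIPK3 (1650 reads) and 7.34 in RIPK4 (470 reads). Here RIPK2 was the highest library, and RIPK4 stood above Vector, unlike for the other members. RIPK2 was 6.35-fold above Vector (5.60 to 7.21) and RIPK3 5.29-fold above (4.66 to 6.02). RIPK4 was 1.57-fold above Vector (1.35 to 1.83). RIPK1 stood at 0.420 of Vector (0.339 to 0.518) and Wnt3a at 0.624 (0.516 to 0.753).

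IFIT3, the stabilising partner of IFIT1, stood at 11.6 RPKM in Vector (539 reads), 2.97 in Wnt3a (148 reads), 2.78 in RIPK1 (146 reads), 41 in RIPK2 (2126 reads), 47.5 in RIPK3 (2435 reads) and 10.4 in RIPK4 (513 reads). It was low in Wnt3a and RIPK1 as IFIT1 was, and well above Vector in RIPK2 and RIPK3 as IFIT2 was. RIPK3 was 4.08-fold above Vector (3.72 to 4.49) and RIPK2 3.53-fold above (3.21 to 3.88). Wnt3a stood at 0.256 of Vector (0.212 to 0.307) and RIPK1 at 0.239 (0.198 to 0.288). RIPK4 stood at 0.896 of Vector, with an interval of 0.792 to 1.01 that includes 1.

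IFIT5, the triphosphate sensor, stood at 19.1 RPKM in Vector (1326 reads), 5.25 in Wnt3a (392 reads), 5.54 in RIPK1 (436 reads), 28.7 in RIPK2 (2229 reads), 33.9 in RIPK3 (2612 reads) and 12.9 in RIPK4 (955 reads). These values have nearly the shape of IFIT1 at a lower level. RIPK3 was 1.78-fold above Vector (1.67 to 1.90) and RIPK2 1.5-fold above (1.40 to 1.61). Wnt3a stood at 0.275 of Vector (0.245 to 0.308), RIPK1 at 0.291 (0.260 to 0.324) and RIPK4 at 0.678 (0.623 to 0.737).

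**Figure D2:**
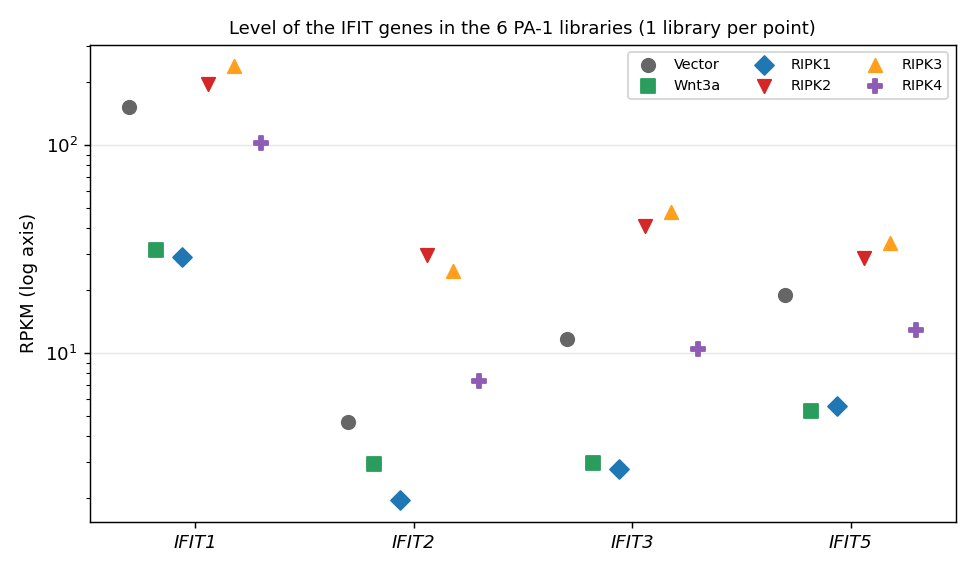
RPKM (log axis) of the 4 IFIT genes, with 1 point for each of the 6 libraries and no error bars because no group has a replicate. RIPK2 and RIPK3 hold the 2 highest points and Wnt3a and RIPK1 the 2 lowest for every gene, while IFIT2 alone has RIPK4 (7.34) above Vector (4.68).

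The order of the libraries was almost shared. RIPK3 was highest for IFIT1, IFIT3 and IFIT5 and RIPK2 for IFIT2, and the lowest library was RIPK1 for 3 genes and Wnt3a for IFIT5. Of the 20 pairs of neighbours in these orders, 17 had an interval of their ratio that left out 1. The 3 others were Vector and RIPK4 for IFIT3 (1.12, 0.987 to 1.26), Wnt3a and RIPK1 for IFIT3 (1.07, 0.844 to 1.35) and RIPK1 and Wnt3a for IFIT5 (1.06, 0.919 to 1.21). For IFIT1, Wnt3a over RIPK1 came to 1.07 with an interval of 1.004 to 1.15.

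Set against all genes, 2 or 3 of the 4 IFIT genes were at least 2-fold apart from Vector in 4 of the 5 comparisons. For this, differences were taken on the log2(RPKM + 1) scale, which understates those of low genes, over the 11881 genes with a mean of at least 1 RPKM, leaving out the transfected kinase in its own comparison. All 4 IFIT genes passed that filter, and each exceeded 1 RPKM in every library. In RIPK1, 3 of the 4 genes were at least 2-fold lower, against 0.547% of all genes, and IFIT2 followed at -0.94. In Wnt3a the same 3 genes were at least 2-fold lower, against 1.43% of all genes, with IFIT2 at -0.53. In RIPK2, IFIT2 (2.43) and IFIT3 (1.73) were at least 2-fold higher, against 1.59% of all genes, with IFIT5 at 0.56 and IFIT1 at 0.36. In RIPK3, IFIT2 (2.18) and IFIT3 (1.94) were again at least 2-fold higher, against 1.47% of all genes, with IFIT5 at 0.80 and IFIT1 at 0.65. In RIPK4 none of the 4 was 2-fold apart, where 0.396% of all genes were higher and 0.387% lower.

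All 5 comparisons share the Vector library, so their values are not independent of one another. The ranks show the divide within the family. IFIT2 ranked 8 from the top of 11880 genes in RIPK2 and 11 in RIPK3, and IFIT3 ranked 46 and 18. IFIT1 ranked 2136 and 564 there, but 6 from the bottom of 11881 genes in Wnt3a and 8 from the bottom in RIPK1. IFIT2 ranked 1272 from the bottom in Wnt3a. IFIT5 ranked 969 from the top in RIPK2 and 337 in RIPK3. In RIPK4, IFIT1 ranked 416, IFIT5 525 and IFIT3 3456 from the bottom of 11880 genes, and IFIT2 ranked 713 from the top.

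Differences between libraries also followed the GC content of transcripts, with a Spearman rho across 11779 genes of 0.693 for Wnt3a, 0.663 for RIPK2, 0.544 for RIPK3, 0.667 for RIPK4 and -0.0817 for RIPK1. The IFIT transcripts are poor in GC, from 37.4% for IFIT5 to 44.3% for IFIT3. With that trend removed, IFIT1 stood at 0.59 in RIPK2 and 0.79 in RIPK3, and IFIT5 at 0.94 and 1.04, which put IFIT5 past 2-fold in RIPK3, so that 3 members were, against 1.05% of all genes. In RIPK4, IFIT5 then stood at -0.27 in place of -0.53, and in Wnt3a at -1.25 in place of -1.68.

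RIPK2 and RIPK3 over RIPK1, which leave Vector out, gave wider ratios than any comparison with Vector for all 4 genes. RIPK2 over RIPK1 came to 6.74 for IFIT1 (6.41 to 7.08), 15.1 for IFIT2 (12.7 to 18.1), 14.7 for IFIT3 (12.5 to 17.5) and 5.17 for IFIT5 (4.66 to 5.74). All 4 were at least 2-fold higher, against 2.74% of all genes. RIPK3 over RIPK1 came to 8.22, 12.6, 17.1 and 6.12 for IFIT1, IFIT2, IFIT3 and IFIT5, against 2.39% of all genes that were at least 2-fold higher. RIPK4 over Wnt3a came to 3.28 for IFIT1 (3.12 to 3.46), 2.51 for IFIT2 (2.12 to 2.99), 3.5 for IFIT3 (2.91 to 4.24) and 2.46 for IFIT5 (2.19 to 2.78). There too all 4 were at least 2-fold higher, against 0.295% of all genes.

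The balance within the family shifted, and ratios taken within a library do not depend on how libraries are scaled. Relative to IFIT1, IFIT2 stood at 3.07% in Vector, 9.36% in Wnt3a, 6.75% in RIPK1, 15.1% in RIPK2, 10.3% in RIPK3 and 7.16% in RIPK4. Vector was thus the lowest of the 6 libraries. The change from Vector in this ratio was 4.93-fold in RIPK2 (4.33 to 5.62), 3.37-fold in RIPK3 (2.96 to 3.84) and 3.05-fold in Wnt3a (2.5 to 3.7). It was 2.33-fold in RIPK4 (2.0 to 2.72) and 2.20-fold in RIPK1 (1.76 to 2.73).

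IFIT3 relative to IFIT1 stood at 7.64% in Vector, 9.53% in Wnt3a, 9.57% in RIPK1, 20.9% in RIPK2, 19.8% in RIPK3 and 10.2% in RIPK4. This balance set RIPK2 (2.74-fold over Vector, 2.48 to 3.03) and RIPK3 (2.60-fold, 2.36 to 2.87) apart from the rest. IFIT5 relative to IFIT1 moved less, from 12.5% in Vector to 19.0% in RIPK1, and in RIPK4 its change of 1.01 had an interval of 0.920 to 1.10. As a share of the summed RPKM of the family, IFIT1 made up 81.2% in Vector and 66.4% in RIPK2, and IFIT2 made up 2.49% and 10.1%.

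**Figure D3:**
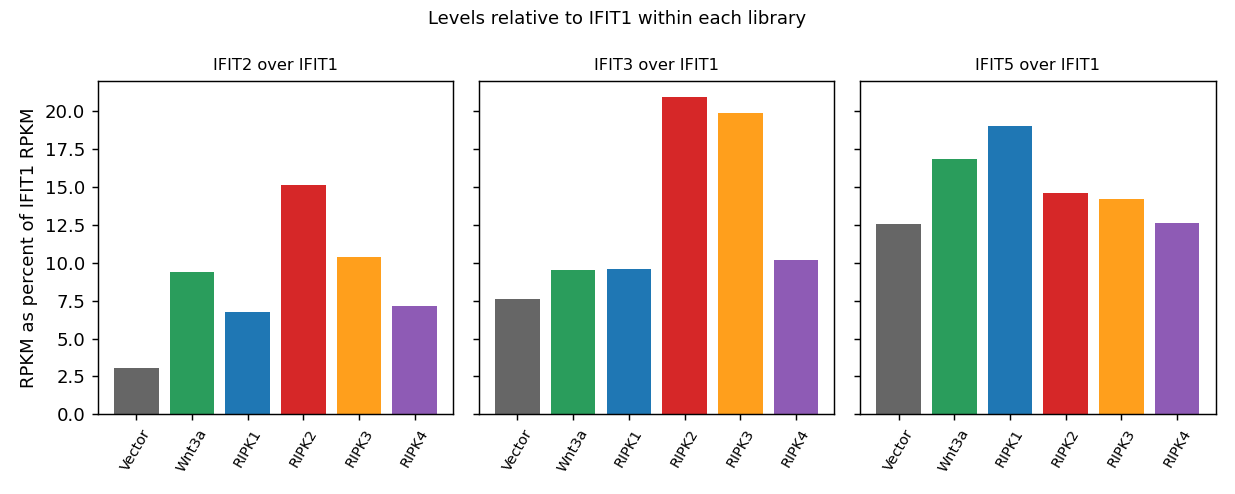
RPKM of IFIT2, IFIT3 and IFIT5 as a percentage of IFIT1 RPKM in the same library, with 1 bar per library and no error bars because no group has a replicate. IFIT2 is lowest relative to IFIT1 in Vector (3.07%) and highest in RIPK2 (15.1%), and IFIT3 reaches 20.9% and 19.8% in RIPK2 and RIPK3.

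The family was next set beside 14 other genes that IRF3 can induce directly and 40 genes that mainly need interferon. The split follows general knowledge of these genes and is not exclusive, since many promoters answer to both routes. In the first list 8 genes passed the filter, and IFNL1 did so only through RIPK2 and RIPK3. In the second list 33 passed. CMPK2 did so only through the same libraries, and it is among the genes counted as higher there. The interferon-dependent genes moved as a broad group. In RIPK1, 21 of 33 were at least 2-fold lower with a median of -1.33, and all 33 stood below Vector, where the median of all genes was 0.01. In Wnt3a, 12 of 33 were at least 2-fold lower with a median of -0.57, against a median of 0.04 over all genes. In RIPK2, 4 of 33 were at least 2-fold higher (median 0.62), and in RIPK3, 8 of 33 (median 0.68), against medians over all genes of -0.01 and 0.02. In RIPK4 none was 2-fold apart, with a median of -0.03 against 0.05 over all genes. Shares of all genes at 2-fold are those given above for each comparison.

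IRF3 direct genes were more uneven. In RIPK2, 3 of the 8 kept were at least 2-fold higher (OASL, CCL5 and IFNL1) with a median of 0.59, and all 8 stood above Vector. In RIPK3 the count was again 3 of 8, with a median of 0.71. In RIPK1, 2 of 8 were at least 2-fold lower (ISG15 and OASL) with a median of -0.69, and in Wnt3a none, with a median of -0.13 (-0.38 with the GC trend removed and -0.03 with no filter). In RIPK4, OASL alone was at least 2-fold higher, with a list median of 0.39 (0.20 with the GC trend removed and 0.07 with no filter). Over all kept genes, 1.59% were at least 2-fold higher in RIPK2, 1.47% in RIPK3 and 0.396% in RIPK4, and 0.547% were lower in RIPK1. With all 14 genes and no filter, 4 were at least 2-fold higher in RIPK2, 3 in RIPK3 and 1 in RIPK4, against 1.01%, 0.898% and 0.273% of all genes in the table.

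OASL, an enzymatically inactive relative of the oligoadenylate synthetases that enhances RIG-I signalling, was the IRF3 direct gene nearest to IFIT2 by the size of its differences. It stood at 3.47 RPKM in Vector, 2.61 in Wnt3a, 0.845 in RIPK1, 25.8 in RIPK2, 23.5 in RIPK3 and 9.21 in RIPK4. Like IFIT2, OASL had its highest value in RIPK2 and stood above Vector in RIPK4. Its ratio of RIPK2 to RIPK3 was 1.10, however, with an interval of 0.996 to 1.21 that includes 1. Its ratio to Vector was 7.42 in RIPK2 (6.08 to 9.14), 6.77 in RIPK3 (5.54 to 8.35) and 2.65 in RIPK4 (2.12 to 3.33). Within libraries, OASL relative to IFIT2 changed 1.17-fold from Vector to RIPK2, with an interval of 0.921 to 1.49 that includes 1. In the other plasmid libraries the balance of the 2 genes did shift, to 0.579 of Vector in RIPK1 (0.355 to 0.927), 1.28 in RIPK3 (1.01 to 1.64) and 1.69 in RIPK4 (1.29 to 2.22).

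CCL5, a T-cell chemokine, stood at 0.992 RPKM in Vector (21 reads), 1.23 in Wnt3a, 0.251 in RIPK1 (6 reads), 7.77 in RIPK2, 8.50 in RIPK3 and 2.89 in RIPK4. It shares with IFIT2 and OASL a value above Vector in RIPK4 (2.91-fold, 1.76 to 5.02). Such a value was not particular to these genes. In RIPK4, 16 of the 33 interferon-dependent genes and 5 of the 8 IRF3 direct genes stood above Vector, as did 6608 of all 11880 genes. The largest interferon-dependent difference there was 0.60 on the log2(RPKM + 1) scale, against 0.55 for IFIT2. ISG15, a ubiquitin-like modifier, stood at 849 RPKM in Vector, 882 in Wnt3a, 209 in RIPK1, 1547 in RIPK2, 1603 in RIPK3 and 1345 in RIPK4. It was high in every library and did not share the low Wnt3a level of IFIT1. HERC5, the ligase that attaches ISG15, was at 35.3 RPKM in Vector and 20.5, 17.5, 40.6, 50.8 and 29.9 in Wnt3a, RIPK1, RIPK2, RIPK3 and RIPK4. PMAIP1, a pro-apoptotic BH3 protein, ranged from 3.03 RPKM in Wnt3a to 8.81 in RIPK3, the antiviral zinc-finger protein ZC3HAV1 from 10.2 to 19.8, and the stress factor ATF3 from 4.32 in RIPK1 to 7.58 in RIPK4.

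**Figure D4:**
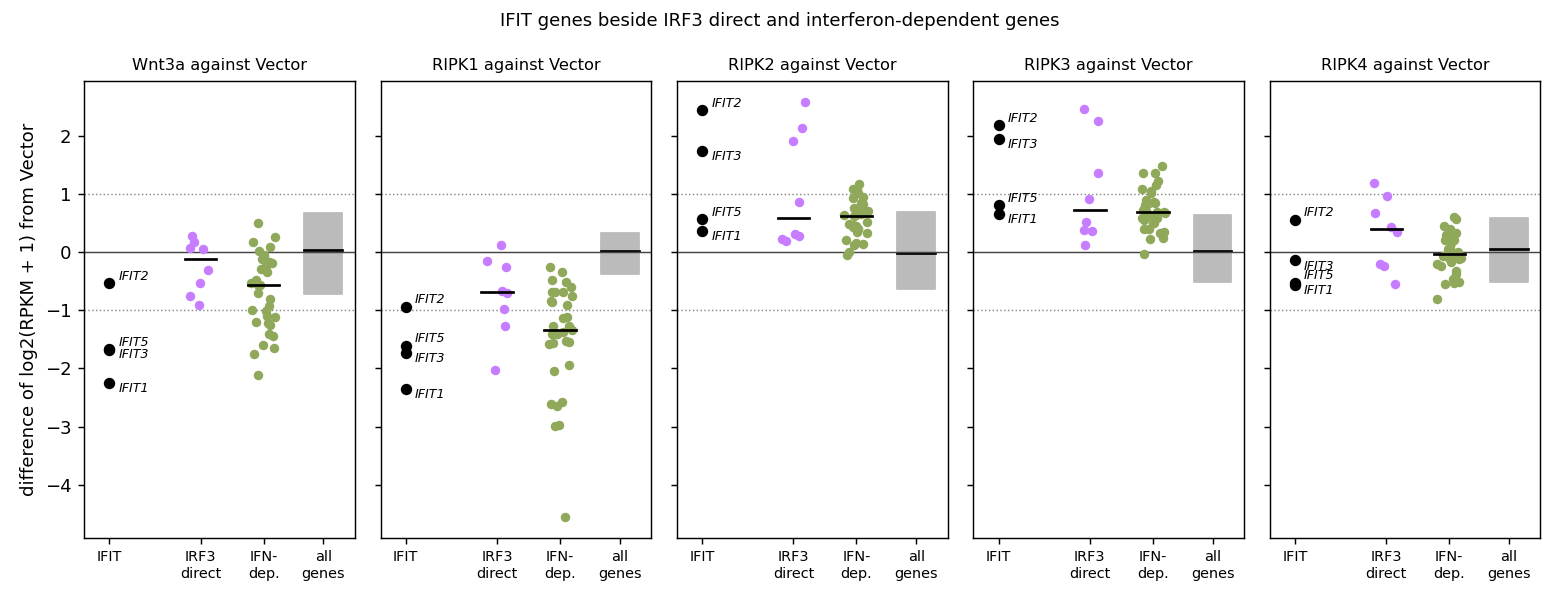
Difference of log2(RPKM + 1) from Vector in the 5 comparisons for the 4 IFIT genes (black), the 8 IRF3 direct and 33 interferon-dependent genes that passed the filter (coloured points, line at the median), and all 11881 genes (grey box from the 5th to the 95th percentile, line at the median). Dotted lines mark 2-fold. On this scale IFIT2 and IFIT3 lie above every interferon-dependent gene shown in RIPK2 and RIPK3, while IFIT1 and IFIT5 lie among them.

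On the log2(RPKM + 1) scale, IFIT2 and IFIT3 thus lay above the range of the kept interferon-dependent genes in RIPK2 and RIPK3. IFIT1 and IFIT5 lay within it. The highest interferon-dependent difference was 1.17 in RIPK2 and 1.49 in RIPK3 (CMPK2), below IFIT2 and IFIT3 and above IFIT1 and IFIT5. Plain RPKM ratios to Vector, with no pseudocount, gave another order. In RIPK2, CMPK2 was 3.58-fold above Vector, against 3.53-fold for IFIT3 and 6.35-fold for IFIT2. In RIPK3 it was 5.56-fold above, against 5.29-fold for IFIT2 and 4.08-fold for IFIT3. OAS2, which makes the activator of RNase L, was 2.17-fold above Vector in RIPK2 (2.07 to 2.28) and 2.62-fold in RIPK3 (2.5 to 2.75). STAT2, a subunit of ISGF3, ranged from 15.7 RPKM in RIPK1 to 34.9 in RIPK2, and IRF9, which gives the complex its DNA binding, from 14.4 in RIPK1 to 36.3 in RIPK2. MX1, often used as a reporter of interferon, was nearly silent at 0.0711 to 0.349 RPKM, and MX2 was at most 0.101 RPKM.

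The RIPK1 and Wnt3a libraries, close in IFIT1, IFIT3 and IFIT5, were close in part of the interferon-dependent list and apart in the rest. On the log2(RPKM + 1) scale 11 of its 33 genes were at least 2-fold lower in RIPK1 than in Wnt3a, against 0.833% of all genes, and none was 2-fold higher. Its median difference was -0.45, with a range from -4.50 for IFI27 to 0.60 for EIF2AK2. Among genes that were close, SAMD9 stood at 4.58 RPKM in RIPK1 and 4.31 in Wnt3a, and PARP9 at 4.02 and 4.46. IFI27, a mitochondrial interferon-induced protein, stood at 7.54 RPKM in RIPK1 and 193 in Wnt3a, against 200 in Vector. OAS2 in RIPK1 was 0.332 of its Wnt3a level (0.285 to 0.385). Outside that list, the RNA sensor IFIH1 was at 0.336 (0.251 to 0.444) and OASL at 0.324 (0.206 to 0.495). For IFIT1 the same ratio was 0.933 (0.873 to 0.996), for IFIT3 0.936 (0.740 to 1.18), for IFIT5 1.06 (0.919 to 1.21) and for IFIT2 0.673 (0.535 to 0.844).

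RIPK2 and RIPK3 differed little from each other, and in a direction that depended on the gene. IFIT2 was 1.20-fold higher in RIPK2 (1.12 to 1.28), while RIPK2 stood at 0.819 of RIPK3 for IFIT1 (0.800 to 0.840), 0.864 for IFIT3 (0.815 to 0.916) and 0.844 for IFIT5 (0.798 to 0.894). Of the 33 interferon-dependent genes, 27 were higher in RIPK3 and 6 in RIPK2. Of the 8 IRF3 direct genes, 5 were higher in RIPK3 and 3 in RIPK2. Over all genes, 61.5% were higher in RIPK3.

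Interferon transcripts themselves were scarce. IFNB1, encoding interferon-beta, had 4 reads in Vector, 0 in Wnt3a, 0 in RIPK1, 29 in RIPK2, 17 in RIPK3 and 5 in RIPK4. Most reads were thus in RIPK2 and RIPK3, and the counts of 0 in Wnt3a and RIPK1 could not be told from the 4 in Vector, with ratios of up to 1.41 and 1.34 within their intervals. RIPK2 was 6.48-fold above Vector, with a wide interval of 2.28 to 25.4, and RIPK3 3.84-fold above (1.25 to 15.7). A count of 0 allows up to 0.183 RPKM in RIPK1 at a floor of 3 reads. The ratio of RIPK1 to RIPK2 was 0, with an upper limit of 0.134.

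IFNL1 (IL29 in the table), a type III interferon, had 2 reads in Vector, 3 in Wnt3a, 4 in RIPK1, 54 in RIPK2, 31 in RIPK3 and 7 in RIPK4. The ratio of RIPK2 to Vector was 24.1 with a counting interval of 6.37 to 204. RIPK2 was 1.72-fold above RIPK3 (1.09 to 2.77), the same direction as for IFIT2. IFNL2 (IL28A) and IFNL3 (IL28B), near-identical copies whose reads can be shared, reached 10 and 5 reads in RIPK2. IFNA1, IFNA2 and IFNG were listed at 0 in all 6 libraries. The chemokines CXCL10 and CXCL11 were at most 0.265 and 0.140 RPKM, and RSAD2 (viperin) reached 0.835 RPKM in RIPK3.

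Upstream of the family, the RNA sensors varied and the core adaptors less so. DDX58 (RIG-I) stood at 25.3 RPKM in Vector, 6.54 in Wnt3a, 8.09 in RIPK1, 40.4 in RIPK2, 47.2 in RIPK3 and 19.8 in RIPK4. IFIH1 (MDA5) stood at 8.16, 2.61, 0.876, 13.2, 17.4 and 6.45 RPKM in the same order of libraries. Both sensors are interferon-induced themselves, and they followed the order of IFIT1 apart from the exchange of Wnt3a and RIPK1 for DDX58. The transcripts of IRF3 ranged from 15.2 RPKM in RIPK1 to 24.7 in Wnt3a, of MAVS from 13.2 in Vector to 17.8 in RIPK4, and of TBK1 from 10.3 in Wnt3a to 15.9 in Vector. IKBKE, the inducible relative of TBK1, stood at 1.17 RPKM in Vector, 3.45 in RIPK2 and 3.44 in RIPK3. The DNA-sensing route was low, with TMEM173 (STING) at 0.891 to 1.43 RPKM, MB21D1 (cGAS) at most 0.259 and ZBP1 listed at 0. Of the 13 kept genes of this list of 17, 3 were at least 2-fold lower in Wnt3a, 2 lower in RIPK1, 1 higher in RIPK2 and 2 higher in RIPK3. The shares of all genes were 1.43%, 0.547%, 1.59% and 1.47% in the same order. In RIPK4 none was 2-fold apart.

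Among the neighbours of the family on chromosome 10, only CH25H shared the 2-fold rise of IFIT2 and IFIT3 in RIPK2 and RIPK3. Most of those that passed the filter stood below Vector in Wnt3a and RIPK1, by less than 2-fold. In RefSeq order the cluster runs CH25H, LIPA, IFIT2, IFIT3, IFIT1B, IFIT1 and IFIT5. IFIT1B, a further family member that the rule did not take in, was at 0 in 5 libraries and 0.0532 RPKM in RIPK3. CH25H, cholesterol hydroxylase and itself an interferon-stimulated gene, stood at 0.632 RPKM in Vector (15 reads), 0.392 in Wnt3a (10 reads), 0.186 in RIPK1 (5 reads), 3.81 in RIPK2 (101 reads), 2.93 in RIPK3 (77 reads) and 0.992 in RIPK4 (25 reads). RIPK2 was 6.02-fold above Vector (3.48 to 11.2) and RIPK3 4.64-fold above (2.65 to 8.69). Its libraries stood in the order of IFIT2, but of the 5 neighbouring pairs only RIPK3 over RIPK4 (2.96, 1.86 to 4.85) had an interval that left out 1. LIPA, lysosomal acid lipase, lies on the opposite strand and spans the cluster with introns. It stood at 21.9 RPKM in Vector, 17.5 in Wnt3a, 20.9 in RIPK1, 14.3 in RIPK2, 16.5 in RIPK3 and 19.6 in RIPK4, which is not the order of any IFIT gene. In GENCODE 29 its exons cover 65 of the 4101 exonic bases of IFIT2 (1.58%) and 0 of the other 3 genes. Farther along the chromosome, PANK1 ranged from 7.03 to 11.5 RPKM, KIF20B from 8.89 to 19.8, FAS from 1.72 to 3.36, ACTA2 from 23.4 to 38.0 and HTR7 from 1.84 to 3.76. STAMBPL1 was at most 0.228 RPKM and SLC16A12 at most 0.0425. Of the 10 neighbours 7 passed the filter, and CH25H alone was at least 2-fold apart from Vector, in RIPK2 and RIPK3, the 2 libraries through which it passed. The share of all genes at least 2-fold higher was 1.59% in RIPK2 and 1.47% in RIPK3. In Wnt3a, 6 of the 7 stood below Vector (median -0.53, -0.28 with the GC trend removed), against 5550 of all 11881 genes. In RIPK1, 6 of the 7 did so (median -0.25, -0.29 with the GC trend removed), against 5679 of all 11880 genes. The medians over all genes were 0.04 and 0.01.

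Likeness was measured by Pearson's r of log2(RPKM + 1) over the 6 libraries, among 872 genes with a mean of at least 1 RPKM that varied by at least 1 on that scale. With 6 points that share library effects, r is a description. Within the family, r was highest for IFIT1 and IFIT5 (0.990) and lowest for IFIT1 and IFIT2 (0.864). The 5 genes nearest to IFIT1 were PARP9, SAMD9, TRIM22, XAF1 and PLSCR1, with r from 0.990 to 0.996. For IFIT5 they were DDX60L, PARP9, DDX58, SAMD9 and SAMD9L (0.994 to 0.999). For IFIT3 they were SP110, MYD88, PARP14, ZNFX1 and DDX60 (0.985 to 0.997). For IFIT2 they were AP5Z1, CH25H, TMEM63A, CDH5 and MYD88 (0.992 to 0.998).

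These neighbours differ in size of change. In RIPK2, CDH5 (VE-cadherin) stood at 0.90, AP5Z1 at 0.91 and MYD88, the adaptor of Toll-like receptors, at 0.79 on the log2(RPKM + 1) scale, against 2.43 for IFIT2. When likeness was judged by the root-mean-square difference of the 5 log2 differences instead, IFIT2 stood nearest to SOX14, OASL, EMP1, CCL5 and LOX, which shares 0 of 5 genes with the list by r. IFIT5 kept 4 of 5 genes under that measure, IFIT1 2 and IFIT3 1.

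**Figure D5:**
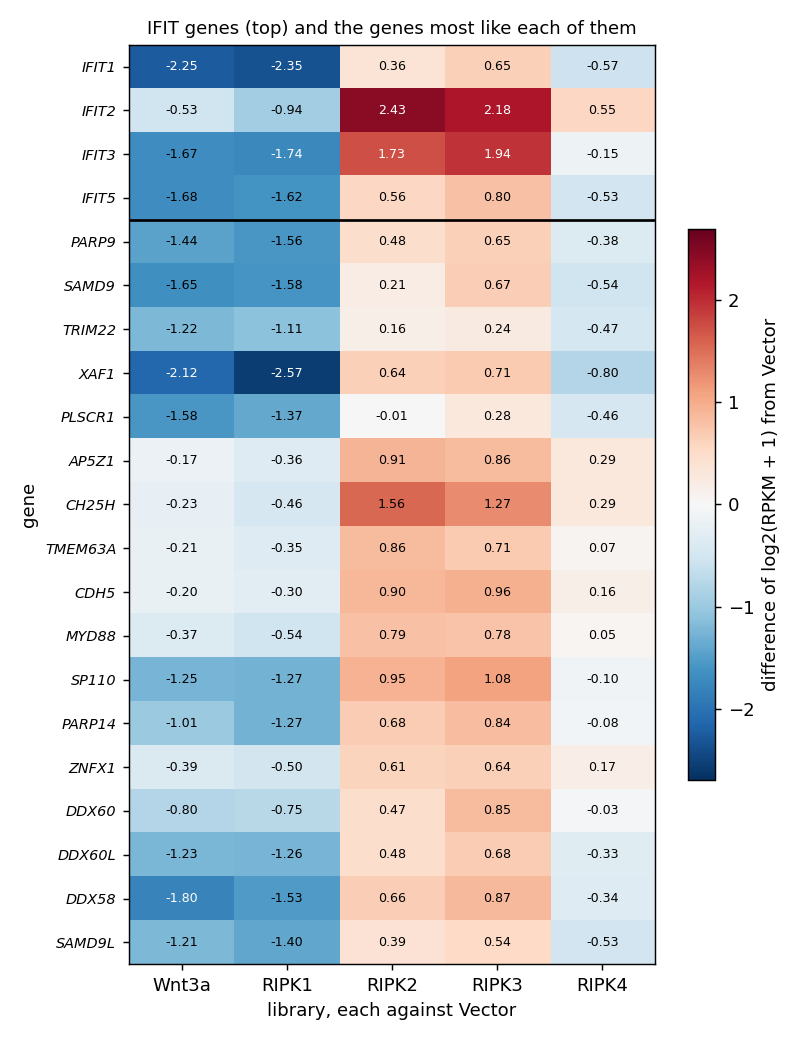
Difference of log2(RPKM + 1) from Vector (colour and printed value) in each of the 5 comparisons for the 4 IFIT genes, above the line, and the genes most like them by Pearson's r, below it. IFIT1 and IFIT5 share their pattern with PARP9, SAMD9 and DDX58, while IFIT2 stands beside genes such as CH25H that are low in RIPK1 by less than 1 and high in RIPK2. This scale understates CH25H, whose RPKM in RIPK1 stood at 0.295 of Vector (0.0838 to 0.853), against 0.420 for IFIT2.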

How the data were processed

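The deposited table holds the authors' RPKM, 1 column for each of 6 libraries, matched to samples by title. GSNAP, DESeq and the build hg19 appear in the submitters' processing notes. The sources used here do not give their roles, versions, annotation, strand or counting rule. RPKM was used without further scaling. The members and gene lists were chosen with earlier results of these data known. A mean of at least 1 RPKM over the libraries was required, which kept 11881 genes, and a gene was counted at a 2-fold difference of log2(RPKM + 1). Named genes were the 4 members, the detected IRF3 direct genes, defining genes of the pathway, up to 8 genes of each other list with the largest difference, all neighbours on chromosome 10 and the 5 genes most like each member. Some genes were added outside that rule, after their values were seen, where it did not already take them. These were genes named at or near 0, MAVS, TMEM173, JAK1, CMPK2 and those nearest to IFIT2 by root-mean-square difference. One gene that the rule takes is not reported here.

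Reads were recovered as the shortest gene length, from 200 to 15000 bases, at which all 6 RPKM values gave whole reads within the table's 5 significant digits. Of the kept genes, 7347 (61.8%) had 1 such length apart from its multiples. IFIT1 did not, so its intervals rest on the shortest length, which gives the widest interval. The recovery was tested on simulated data. GC content came from GENCODE 29 transcripts. The 8 alternatives tried are in the closing section. Python 3.11.15 and scipy 1.17.1 were used.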

Additional observations from a re-analysis of the deposited data

How the results depend on the processing

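No difference of an IFIT gene changed sign under the alternatives. Differences of the members not given here stayed within the counting interval of the value reported, and counts of the members, IRF3 direct and interferon-dependent genes within 1.5 times. Medians of the gene lists were less stable: of 280 recomputed, 97 moved by over 1.5 times, 16 of them to the other sign, each of these from a median within 0.25 of 0. Counts of the other 6 lists moved by over 1.5 times in 51 of 480 cases. The count of sensing genes higher in RIPK2, 1 as reported, was 0 with the GC trend removed, and that of interferons and receptors was 2 with no filter. No paired analysis was possible because each group has 1 library. The ratio to IFIT1 was taken in RPKM and not also in reads, because the length of IFIT1 is not unique. Intervals of its change from Vector do rest on recovered reads, with IFIT1 at its shortest length. Protein identity was not analysed here. The cause of the shifts was not tested. Values are log2 differences from Vector unless called counts. With the GC trend removed, IFIT1 stood at -2.04 in Wnt3a, 0.59 in RIPK2, 0.79 in RIPK3 and -0.42 in RIPK4, IFIT2 at 2.65 and IFIT3 at 1.90 in RIPK2, and IFIT5 at -1.25 in Wnt3a, 0.94 in RIPK2, 1.04 in RIPK3 and -0.27 in RIPK4. The count of interferon-dependent genes was then 7 lower in Wnt3a and 2 higher in RIPK2, against 99 of 11779 and 120 of 11778 genes over all. With the median of the other 5 libraries as reference in place of Vector, IFIT1 stood at 0.93 in RIPK2 and 1.22 in RIPK3, IFIT2 at -1.09 in Wnt3a and -1.49 in RIPK1, IFIT3 at 1.88 in RIPK2 and 2.09 in RIPK3, and IFIT5 at 1.09 and 1.33 there. The counts were then 4 IFIT genes higher in RIPK3, 1 IRF3 direct gene lower in Wnt3a, and 7 and 15 interferon-dependent genes higher in RIPK2 and RIPK3. With no pseudocount, IFIT2 stood at -1.25 in RIPK1, 2.67 in RIPK2 and 2.40 in RIPK3, IFIT3 at -1.97 in Wnt3a and -2.06 in RIPK1, and IFIT5 at -1.86 and -1.78 there. With a pseudocount of 0.1, IFIT2 stood at 2.64 in RIPK2 and 2.38 in RIPK3 and IFIT3 at -2.02 in RIPK1. Under either pseudocount the IRF3 direct counts were 1 lower in Wnt3a, 4 lower in RIPK1 and 3 higher in RIPK4, and with none 1 interferon-dependent gene was lower in RIPK4. At a threshold of 1.5-fold, 4 IFIT genes were higher in RIPK3. The IRF3 direct counts were then 2 lower in Wnt3a, 5 lower in RIPK1 and 3 higher in RIPK4, and the interferon-dependent counts 17 higher in RIPK2, 22 higher in RIPK3, and 1 higher and 1 lower in RIPK4. At a mean RPKM of at least 5, 1 IRF3 direct gene was higher in each of RIPK2 and RIPK3. No share of all genes is given for the median reference, the other pseudocounts, the 1.5-fold threshold or this filter. Counts under these settings therefore show only how far a count depends on the setting, and not how unusual it is. With median-of-ratios scaling, IFIT1 stood at -0.64 in RIPK4. Depth limits IFNB1 and the IFNL genes, which had 54 reads or fewer in any library.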

Other observations

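The receptors and kinases that carry an interferon signal to ISGF3 varied less than the IFIT genes. IFNAR1 ranged from 2.98 RPKM in Wnt3a to 4.53 in RIPK3, IFNAR2 from 4.32 in RIPK2 to 5.94 in Wnt3a, JAK1 from 6.96 in Wnt3a to 8.97 in RIPK3 and TYK2 from 10.3 in RIPK1 to 17.8 in RIPK4. Of the 10 kept genes in this list of 19 interferons, receptors and signalling proteins, IFNL1 alone was at least 2-fold apart from Vector. It was so in RIPK2 and RIPK3, the 2 libraries through which it passed the filter. Over all kept genes, 1.59% were at least 2-fold higher in RIPK2 and 1.47% in RIPK3.

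Partners and substrates of the IFIT proteins in cap recognition and translation, such as the cap methyltransferases CMTR1 and CMTR2 and subunits of eIF3, moved less still. None of these 13 genes was 2-fold apart from Vector in any comparison, and the list's medians lay between -0.02 in RIPK4 and 0.07 in Wnt3a (-0.02 with the GC trend removed). Among 12 kept NF-kB target genes, none was 2-fold apart, with medians of 0.25 in Wnt3a, -0.09 in RIPK1, 0.51 in RIPK2, 0.55 in RIPK3 and 0.23 in RIPK4. With the GC trend removed those medians were -0.04, -0.08, 0.28, 0.33 and -0.06, so the sign turned in Wnt3a and RIPK4. Among 12 housekeeping genes, none was 2-fold apart, with medians from -0.11 in RIPK3 to 0.22 in Wnt3a. With a pseudocount of 0.1 in place of 1, 1 cap or partner gene was at least 2-fold higher in RIPK1 and 1 in RIPK2. Of the NF-kB targets, 1 was then lower in RIPK1 and 1 higher in each of RIPK2 and RIPK3.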
